A study of Caenorhabditis elegans with 11 samples.

Results

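The cytosolic ribosomal proteins are the protein components of the ribosomes that translate nuclear-encoded messenger RNAs. On the array they were the probe sets (groups of short oligonucleotides that measure 1 transcript) assigned to a single gene whose symbol begins with rpl or rps followed by a number. The rule found 111 probe sets for 75 genes, 45 of the large subunit and 30 of the small subunit, out of 20766 probe sets with a single gene for 17118 genes. Another prefix in the rule, rla, matched 0 genes, since the annotation lists the acidic stalk proteins under rplp symbols. After a filter on dim probe sets, 109 of the 111 were tested, for 74 genes, among 15389 tested probe sets for 11657 genes. Where a gene had several probe sets, the one brightest on average on the log2 scale stands for it.

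A ribosome joins a small subunit, which reads the messenger RNA, to a large subunit, which forms the peptide bonds. Its proteins are made in near equal numbers, so cells and animals adjust their messenger RNAs together. In C. elegans, the TOR and S6 kinase pathway links nutrients to ribosome production and to life span. Many animal cells lower protein synthesis under stress, mostly by acting on translation factors.

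Total RNA of whole adult hermaphrodites was hybridised to 11 Affymetrix C. elegans arrays, 1 for each sample. The worms were 3 days old and, per the design text, sterile and raised at 25°C from the first larval stage. Controls (n = 4) were not stressed. The oxygen group (n = 4) spent 6 hours at 20°C in 99% oxygen under a pressure of 40 PSI. The last group (n = 3) received RNA interference (RNAi) against skn-1 and the same exposure. SKN-1, the worm relative of mammalian Nrf transcription factors, switches on detoxification genes, and the series asked which responses to oxygen depend on it. The labels name strain TJ1090 and the design text TJ1060. Pressure and the lower temperature during exposure went with the oxygen, so their parts cannot be told apart. Groups that would show skn-1 RNAi alone, or the RNAi food alone, are not analysed here. Whether the samples were separate cultures is not stated, so p-values rest on the spread among these samples, which may be technical. In RNA of whole worms, fewer cells of a type and less RNA per cell cannot be told apart.

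Signals are intensities on the linear MAS5 scale as deposited. The targeted gene, skn-1, read 447, 442, 797 and 454 in control, 488, 417, 681 and 455 in oxygen, and 235, 371 and 435 in the RNAi arrays. The difference between RNAi and oxygen did not pass the test (log2 −0.58 ± 0.31, SE; limma adjusted p = 0.547). Its other 2 probe sets gave −0.35 ± 0.45 (limma adjusted p = 0.769) and 0.65 ± 0.81 (limma adjusted p = 0.759), the latter from 132, 75.7, 372 and 505 in oxygen and 256, 345 and 398 with RNAi. Control 1 and 2 and oxygen 1 and 2 (set 1) carried poly-A spike-in signal of 96.7 to 166.9, and the other 7 arrays (set 2) 2.6 to 15.4. No label states this division, which was seen in the values. Set 2 held all 3 RNAi arrays. The signals of an array summed to between 6863650 and 9138000. Precision is limited by how many arrays there are. The mean correlation of control 4 with the other controls was 0.822, and theirs were 0.888 to 0.893.

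The ribosomal protein genes were among the brightest on each array. The lowest of the 74 ranked above 96.4% of all tested probe sets on its array. Together the 74 made up 6.49% to 7.81% of the total signal on 10 arrays and 9.18% on control 4. Their median signal was 7223, 7340, 7408 and 11487 in control. It was 6715, 6949, 7250 and 8132 in oxygen, and 7070, 8241 and 7940 with skn-1 RNAi and oxygen. Control 4 stood above every other array, and the remaining 10 arrays of all groups overlapped. Marks of saturated probes were not used here.

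**Figure D1:**
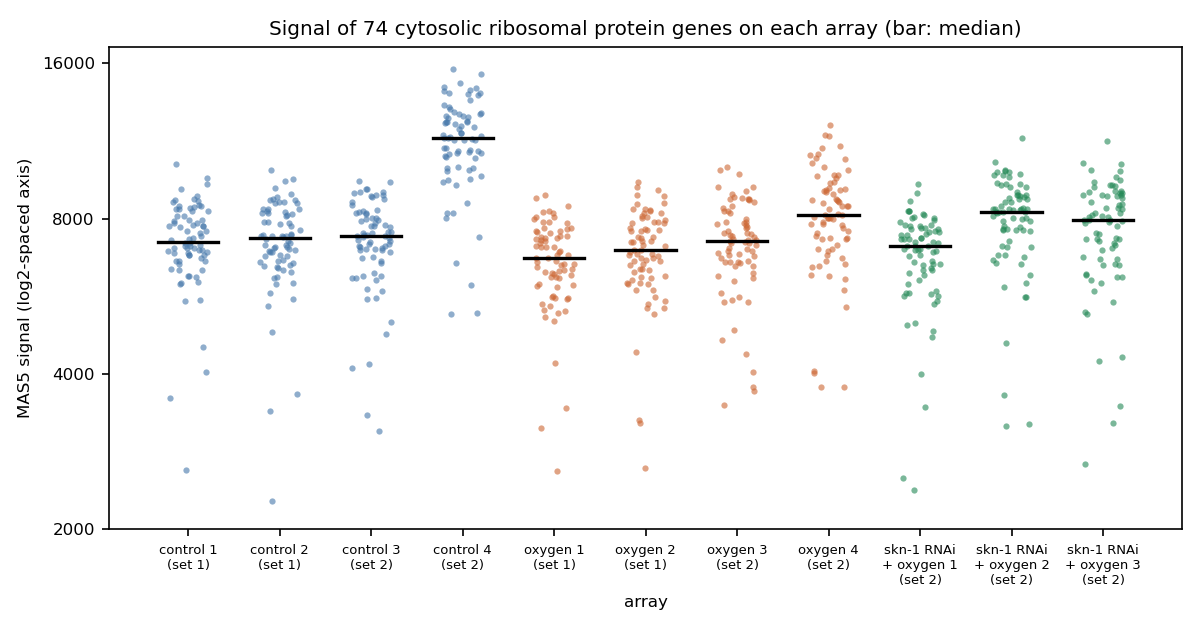
MAS5 signal (log2-spaced axis) of the 74 tested ribosomal protein genes on each of the 11 arrays, 1 point per gene, with the median as a bar and groups by colour. The medians of 10 arrays lie between 6715 and 8241 and that of control 4 at 11487.

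The first comparison asked what oxygen did to these transcripts. None of the 74 genes differed between oxygen and control (limma, 0 higher and 0 lower at adjusted p under 0.05; 0 of 74 at an unadjusted p under 0.05). Over all tested probe sets 3.83% were called, 3.29% higher and 0.539% lower in oxygen. The smallest adjusted p among the members was 0.619. The median log2 difference of the members was −0.18, with a range of −0.30 to −0.001, and that of all tested genes 0.05. All 74 differences were negative in the deposited scaling, but under quantile normalization 31 were, with a median of 0.01. Median centring gave −0.45, with all 74 negative and 10 at an unadjusted p under 0.05 (0 called, limma), and moved the median of all tested genes to −0.22. The 95% intervals of all 74 lay within a 2-fold change either way, from −0.80 at the lowest to 0.64 at the highest. Of all tested genes, 35.5% had an interval within a 2-fold change. Under median centring 48 of the 74 members' intervals lay within a 2-fold change, and in set 2 alone 44 did. No member had groups that did not overlap, 0 higher and 0 lower, beside 6.6% and 3.76% of all tested probe sets. Large and small subunit genes had medians of −0.18 each.

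That negative median moved with control 4. On that array 74 of 74 genes had their highest signal of all 11 arrays, at 1.59-fold the mean of the other controls (geometric mean; median over the genes, with a range of 1.19 to 1.99). Over all tested genes the median was 1.21-fold, and control 4 was the highest control for 4919 of 11657. Among the 209 other tested genes with mean log2 signals in the members' range, control 4 was 1.48-fold above the other controls in the median and the highest of the 11 arrays for 159. For oxygen against control these 209 had a median log2 difference of −0.16, with 76.6% negative, close to that of the members. It was −0.02 without control 4. Of the 209, 4 were called higher and 0 lower in oxygen (limma). Without control 4 the members' median was −0.01 in oxygen against control, with 44 of 74 negative and 0 called (limma; 0 at an unadjusted p under 0.05), and that of all tested genes was 0.11. Between arrays of the same label number, the median difference of the members was −0.13, −0.06, −0.03 and −0.49 for numbers 1 to 4. It was negative for 73, 61, 45 and 74 genes.

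Sperm markers also stood high on control 4. Of the 14 tested, 13 had their highest control signal there, with a median log2 difference of 2.33 from the other controls. Their summed signal was 1440 to 12207 in control with 12207 on control 4, 2077 to 13725 in oxygen, and 10179 to 13107 with RNAi. Of the other controls, control 1 and 2 were set 1 arrays. The sperm markers' median log2 difference was 1.31 for RNAi with oxygen against oxygen and 1.84 against control. With the set as a block these were 0.19 and 0.63. For oxygen against control the sperm markers' median was 0.49, and 1.09 without control 4. Without the block 0 of the 14 were called in any comparison (limma). Control 4 was the highest control for 12 of 16 intestine, 12 of 24 oocyte and germ line, 8 of 14 muscle, 8 of 16 neuron and 5 of 11 epidermis markers. The median log2 differences of control 4 from the other controls were 0.56, 0.34, 0.38, 0.47 and 0.72 for these lists. The summed signal of each list was highest on control 4 among the controls. The summed germ line signal was 49113 to 75118 in control, highest on control 4, 40686 to 51639 in oxygen and 52976 to 54114 with RNAi. Under oxygen the germ line marker glh-1 (−0.97) and the intestine markers act-5 (−2.0), pept-1 (−3.58) and nhx-2 (−1.98) were lower and cpr-1 (1.24) higher (limma, adjusted p of 0.00085 to 0.031). These were 1 of 24 germ line markers, and 3 lower and 1 higher of 16 intestine markers. The list medians were −0.39 and −0.03. Over all tested genes 418 of 11657 were called higher and 77 lower. With RNAi and oxygen against control, nhx-2 (−1.05) was lower, and unc-89 of muscle (1.45) and sbt-1 of neurons (1.00) higher (limma, adjusted p of 0.039 to 0.047). Each was the 1 marker called of its list, of 16, 14 and 16, with list medians of −0.21, 0.74 and 0.55. Over all tested genes 308 of 11657 were called higher and 105 lower in this comparison. The part of these markers in the ribosomal protein signals was not tested.

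**Figure D2:**
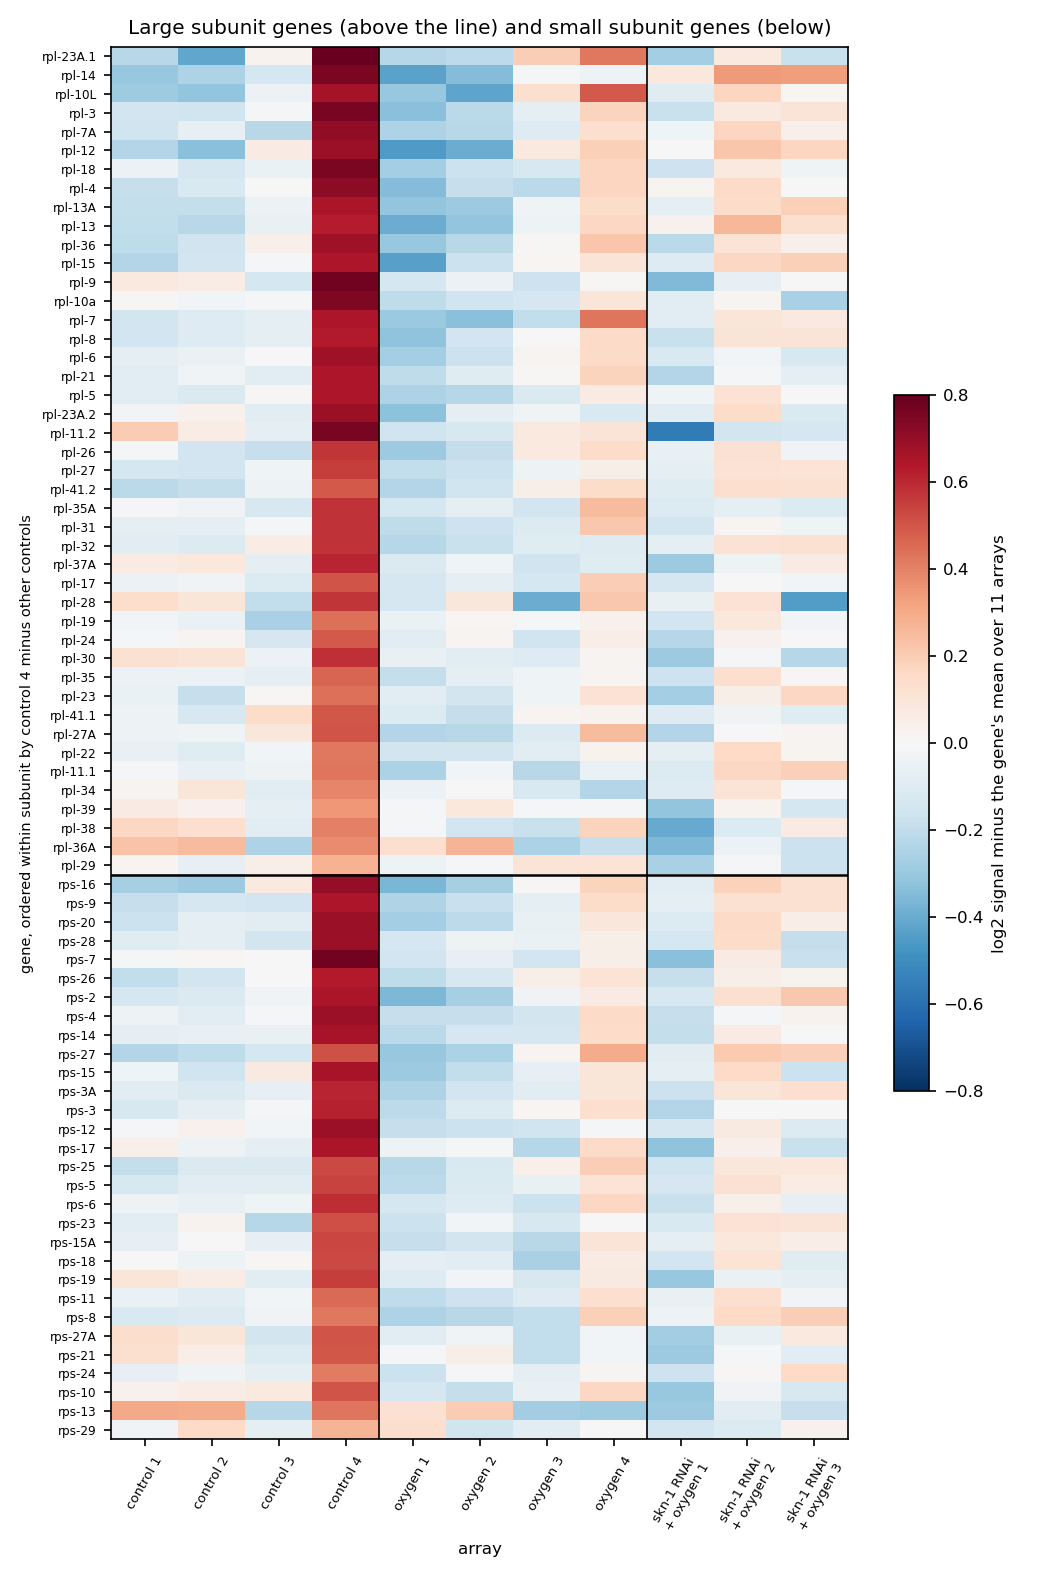
Log2 signal of each tested ribosomal protein gene minus its mean over the 11 arrays, as colour, with arrays in columns and genes in rows, large subunit above and small subunit below the line. The column of control 4 is the highest for all 74 genes, and the other columns differ less.

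The genes with the largest negative differences under oxygen were rps-12, rpl-23A.2 and rpl-10a. The signal of rps-12, a small subunit protein, was 6182, 6375, 6136 and 10021 in control and 5473, 5529, 5570 and 6190 in oxygen. Oxygen 4 overlapped the 3 lower controls. The log2 difference was −0.30 ± 0.21 (SE, limma adjusted p = 0.619), and −0.13 without control 4. For rpl-23A.2, whose protein lies near the exit of the tunnel for new peptides, the control arrays read 7840, 8141, 7493 and 12744 and the oxygen arrays 6321, 7563, 7771 and 7299. The groups overlapped (log2 −0.29 ± 0.22, adjusted p = 0.66, limma; −0.12 without control 4). The gene rpl-10a encodes the protein of the mobile L1 stalk. It read 7559, 7404, 7417 and 12622 in control and 6529, 6722, 6843 and 8036 in oxygen, with a log2 difference of −0.28 ± 0.22 (limma adjusted p = 0.696) that was −0.09 without control 4. No gene had a positive difference.

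Members with well-known roles read much alike. The S6 kinase substrate rps-6 had signals of 7915, 7816, 7942 and 12233 in control, 7383, 7564, 7204 and 9118 in oxygen, and 7177, 8352 and 7751 with RNAi. All 3 groups overlapped, with log2 differences of −0.18 ± 0.21 for oxygen against control and −0.01 ± 0.22 for RNAi with oxygen against oxygen. For rpl-5, which binds the 5S ribosomal RNA, control was 7012, 6891, 7525 and 11715, oxygen 6318, 6399, 6916 and 7821, and RNAi 7300, 8095 and 7467. Its differences were −0.24 ± 0.21 and 0.15 ± 0.23. The gene of a protein that reaches towards the peptidyl transferase centre, rpl-3, read 8273, 8251, 9146 and 15622 in control, the highest signal of any member on any array. In oxygen it read 7320, 7942, 8718 and 10437 and with RNAi 8142, 9733 and 9911, with differences of −0.22 ± 0.25 and 0.11 ± 0.27. For rps-3, at the entry of the messenger RNA channel, the differences were −0.14 ± 0.21 and −0.03 ± 0.23. Its group means were 9698 ± 2588 in the 4 controls, 8628 ± 901 under oxygen and 8414 ± 762 with RNAi (mean ± SD). The second probe set of rps-3 gave −0.16 and 0.05. None of these differences passed the test.

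The annotation gives the protein involved in joining the subunits under rpl-10L. Its signals were 6792, 6646, 8013 and 13144 in control, 6710, 6173, 9067 and 11641 in oxygen, and 7728, 9312 and 8388 with RNAi. Here both set 1 arrays of control and of oxygen lay below every set 2 array of any group. With the group in the fit, rpl-10L was higher in set 2 by 0.64 on the log2 scale (limma adjusted p = 0.019). So were rpl-23A.1 (0.63, adjusted p = 0.025), rpl-12 (0.61, adjusted p = 0.014) and rps-16 (0.54, adjusted p = 0.030), and 0 members were lower. These 4 of 74 stand beside 36.8% of all tested probe sets called higher and 7.53% lower in set 2. The members' median was 0.26, beside 0.44 for all tested probe sets. The actin control probe sets also differed between the sets, with a ratio of 3′ to middle signal of 1.96 to 2.14 in set 1 and 1.06 to 1.25 in set 2. Other ratios of this kind overlapped between the sets. The actin ratio of 3′ to 5′ signal was 2.12 to 2.45 in set 1 and 1.78 to 2.63 in set 2. For Gapdh, 3′ to middle was 0.71 to 0.75 and 0.63 to 0.76, and 3′ to 5′ was 1.11 to 1.17 and 0.77 to 1.14. The part of these ratios in the set difference was not tested. For oxygen against control, both sets hold these groups in equal numbers, so a set block cannot move the members' median of −0.18. It called 0 members (limma), and 0 had an unadjusted p under 0.05. Within set 2 the median was −0.25.

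The second comparison asked what skn-1 RNAi did to these transcripts under oxygen. None of the 74 genes was called (limma, 0 higher and 0 lower; 0 of 74 at an unadjusted p under 0.05), where 0.227% of all tested probe sets were called, 0.0455% higher and 0.182% lower. The median log2 difference was 0.05 (−0.01 under quantile normalization, −0.14 under median centring and −0.08 with the set as a block), and that of all tested genes 0.19. It was positive for 46 genes and negative for 28. The smallest adjusted p was 0.573, and 73 of 74 intervals lay within a 2-fold change, the exception being rpl-14 with an upper bound of 1.09. Over all tested genes 30.1% did. Under median centring 71 of the 74 members' intervals lay within a 2-fold change, and in set 2 alone 71 did. Of the 209 other genes in the members' range of mean log2 signal, 0 were called in this comparison (limma), with a median of 0.09.

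In the large subunit, rpl-14 had the highest difference. It read 5062, 5360, 6759 and 6629 in oxygen and 7224, 8614 and 8608 with RNAi, so that the groups did not overlap. The controls, at 5534, 5738, 6187 and 11509, spanned both. The log2 difference against oxygen was 0.46 ± 0.28 (limma adjusted p = 0.573). A set block lowered it to 0.22. One other member did not overlap, rpl-32, at 6526, 6760, 7174 and 7114 in oxygen and 7289, 8298 and 8336 with RNAi (0.21 ± 0.22, adjusted p = 0.708, limma). These 2 of 74 stand beside 12% of all tested probe sets that were higher without overlap, and 0 of 74 were lower beside 5.21%.

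Next in size were rpl-13 (0.29 ± 0.26) and rpl-12 (0.28 ± 0.29), the latter at the base of the stalk that recruits translation factors. With the set as a block they were 0.06 and −0.03. Another probe set of rpl-12 gave −0.01 and a dim one, with signals of 18.3 to 234.1, gave 0.76. The lowest differences were those of rpl-11.2 (−0.25 ± 0.25), rpl-29 (−0.19 ± 0.18) and rpl-36A (−0.18 ± 0.23), all large subunit genes. None of the 6 passed the test. The signals of rpl-36A were 8597, 8736, 6193 and 9544 in control, 8040, 8845, 6142 and 6449 in oxygen, and 5730, 7088 and 6513 with RNAi. High values lay on set 1 arrays and control 4, and within set 2 the difference was 0.03.

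The third comparison set skn-1 RNAi with oxygen against control. It shares its arrays with the first and second. None of the 74 genes was called (limma, 0 higher and 0 lower; 0 of 74 at an unadjusted p under 0.05), beside 3.34% of all tested probe sets called, 2.49% higher and 0.851% lower. The median log2 difference was −0.12, with 62 of 74 negative, but 0.01 under quantile normalization and 0.05 without control 4. Under median centring it was −0.58, with 74 of 74 negative and 44 at an unadjusted p under 0.05 (0 called, limma), and the median of all tested genes was −0.14. That of all tested genes was 0.32, or 0.37 without control 4. With the set as a block the median was −0.24 with 2 of 74 at an unadjusted p under 0.05. The smallest adjusted p was 0.267, that of rpl-11.2, and 73 of 74 intervals lay within a 2-fold change (26.5% of all tested genes). The exception was again rpl-11.2, with a lower bound of −1.06. Under median centring 11 of the 74 intervals lay within a 2-fold change, and in set 2 alone 48 did. Of the 209 other genes in the members' range of mean log2 signal, 3 were called higher and 1 lower (limma), with a median of −0.04.

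The protein of rpl-11.2 belongs, with that of rpl-5, to the 5S ribosomal RNA particle. It read 4044, 3658, 3325 and 5951 in control, 3151, 3214, 3714 and 3776 in oxygen, and 2387, 3179 and 3208 with RNAi. Every RNAi array lay below every control array, and the RNAi and oxygen arrays overlapped. The log2 difference from control was −0.51 ± 0.25 (limma adjusted p = 0.267), −0.34 without control 4 and −0.62 under a set block. Its second probe set gave −0.38. The small subunit gene rps-10 also did not overlap, with 7939, 8079, 8182 and 10963 in control and 6273, 7612 and 7097 with RNAi (−0.32 ± 0.21, adjusted p = 0.384, limma). Lower values without overlap were found in 6.69% of all tested probe sets and higher ones in 16.9%, where 0 members were.

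After rpl-11.2, the most negative differences from control were those of rps-13 (−0.39 ± 0.23) and rpl-30 (−0.37 ± 0.21). In rps-13 the sets differed visibly. Set 1 arrays read 6042 and 6004 in control and 5325 and 5647 in oxygen. Set 2 arrays read 4183 and 6575 in control, 4034 and 4021 in oxygen, and 4009, 4599 and 4312 with RNAi. The most positive differences were those of rpl-14 (0.24 ± 0.28), rps-27 (0.12 ± 0.25) and rpl-13 (0.11 ± 0.26), which were −0.0001, −0.09 and −0.12 with the set as a block. None passed the test.

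**Figure D3:**
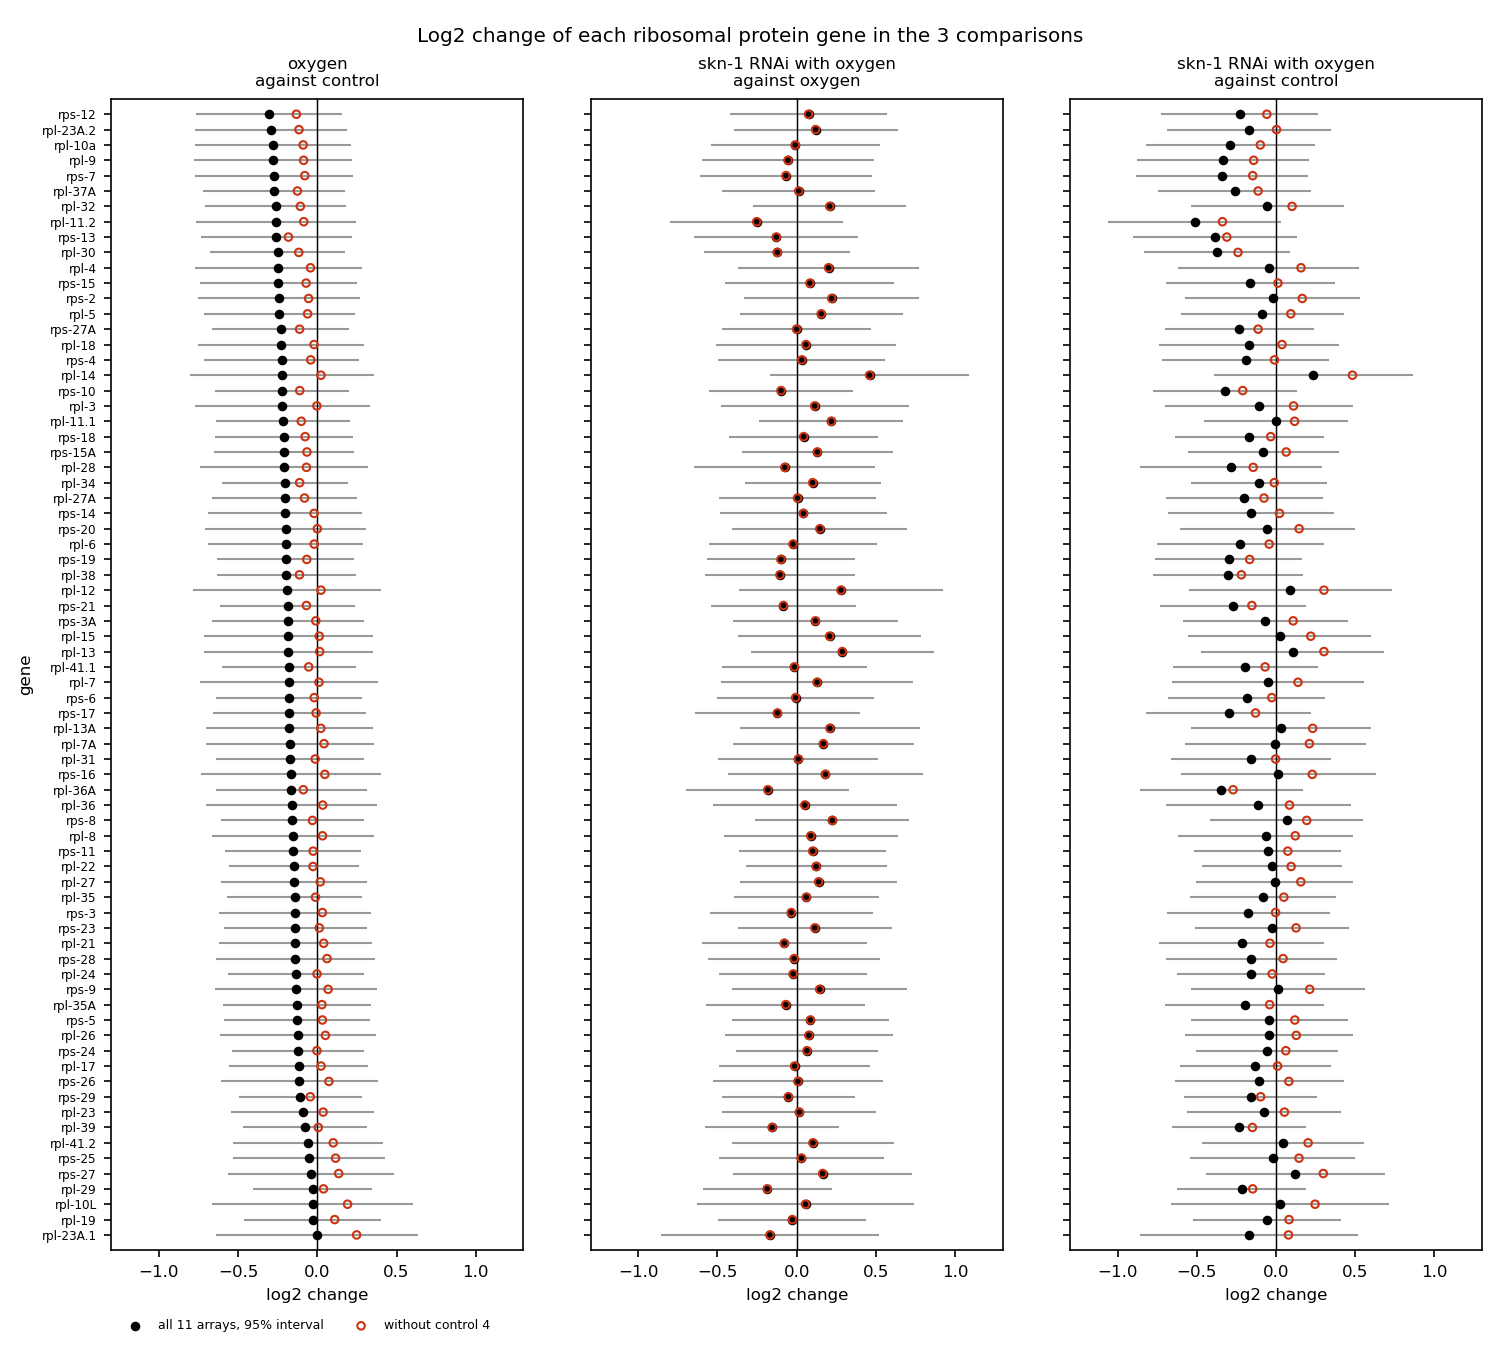
Log2 difference of each of the 74 genes in the 3 comparisons, with all 11 arrays (black, with the 95% interval) and without control 4 (open red circles), ordered by oxygen against control. All black points of the first panel lie at or below 0 and every interval crosses 0; without control 4 the median is −0.01, and under quantile normalization, not drawn, it is 0.01.

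The 74 genes moved together from array to array. The median correlation between pairs of genes was 0.835 over the 11 arrays (2701 pairs, log2 signal). Control 4 carried much of it, since the median was 0.494 over the other 10 arrays. The genes share arrays and scaling, so these values describe the arrays and their genes at once, and 74 signs are not 74 separate observations. Correlations among other genes of like brightness are not given here, so the values are not shown to be particular to the members. The median SD within groups was 0.24 on the log2 scale, beside 0.55 for all tested genes, most of them dimmer. After each array was centred on the members' median, it was 0.09, and rps-13 kept the largest, 0.29. The median of the large subunit minus that of the small subunit ranged from −0.06 to 0.09 over the 11 arrays.

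Centring each array on the members' median asked whether any member moved against the others. It called 0 of 74 in each comparison (limma; 0 of 74 at an unadjusted p under 0.05 in each). The lowest adjusted p was 0.839 for oxygen against control, 0.655 for RNAi with oxygen against oxygen and 0.234 for RNAi with oxygen against control. In the last, rpl-11.2 was lower than the members' median by −0.43 (adjusted p = 0.234, limma) and rpl-14 higher by 0.32 (adjusted p = 0.375, limma).

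There were 3 pairs of paralogs under the same number. The probe sets of rpl-41.1 and rpl-41.2 carry the manufacturer's suffix for possible cross-hybridisation, and those of rpl-11.1, rpl-11.2 and rpl-23A.1 the one for probes shared between transcripts, so the pairs may not be fully separated. A ratio of signals between 2 probe sets gives no ratio of transcripts and is used only to compare arrays. The ratio of rpl-11.1 to rpl-11.2 was 1.73, 1.85, 2.07 and 1.59 in control and 1.88, 2.16, 1.63 and 1.80 in oxygen. With skn-1 RNAi and oxygen it was 2.74, 2.49 and 2.51. All 3 RNAi arrays lay above the other 8, and they also did within set 2, where control read 2.07 and 1.59 and oxygen 1.63 and 1.80.

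The mean log2 ratio was higher with RNAi than in oxygen by 0.47 (1.39-fold; two-sided exact permutation p = 0.0571) and than in control by 0.51 (1.43-fold; two-sided exact permutation p = 0.0286). The latter is the smallest p that 4 against 3 arrays allow. Over the 9 comparisons of 3 pairs both were 0.171 after Benjamini-Hochberg adjustment of the exact permutation p, so neither passed. With the second rpl-11.2 probe set the ratio was 2.98, 2.54 and 2.47 with RNAi, 1.92 to 2.45 in oxygen and 1.51 to 2.66 in control. It stayed without overlap against oxygen (0.28) but overlapped control (0.38). The rpl-11.1 signals were 7005, 6775, 6881 and 9487 in control, 5928, 6950, 6053 and 6805 in oxygen, and 6544, 7910 and 8050 with RNAi. Neither gene alone differed between groups in the limma test (rpl-11.1 0.22 ± 0.20 and rpl-11.2 −0.25 ± 0.25 for RNAi with oxygen against oxygen, adjusted p = 0.677 and 0.689).

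In rpl-23A, the ratio of rpl-23A.1 to rpl-23A.2 was 0.28 to 0.41 in control, 0.35 to 0.56 in oxygen and 0.34 to 0.37 with RNAi, and all groups overlapped. The signals of rpl-23A.1 were 2605, 2272, 3095 and 5249 in control, 2591, 2627, 3479 and 4056 in oxygen, and 2516, 3198 and 2681 with RNAi. Oxygen against control was −0.0006 ± 0.29 on the log2 scale. The very short, basic proteins of rpl-41 had a ratio of rpl-41.1 to rpl-41.2 of 0.44 to 0.50 in control, 0.40 to 0.48 in oxygen and 0.37 to 0.43 with RNAi. RNAi lay below control without overlap (log2 −0.24, two-sided exact permutation p = 0.0571, 0.171 after adjustment). For oxygen against control, rpl-41.1 differed by −0.18 ± 0.19 and rpl-41.2 by −0.06 ± 0.21, and neither passed the test (limma).

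**Figure D4:**
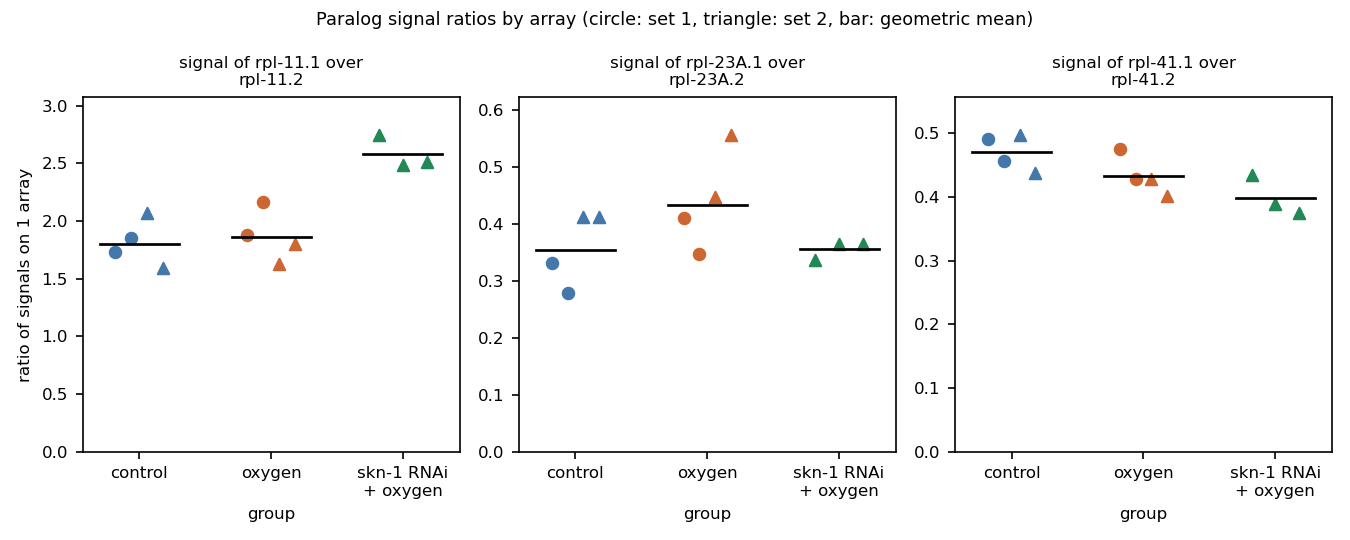
Ratio of the signals of each paralog pair on each array, by group, with circles for set 1 arrays, triangles for set 2 arrays and a bar for the geometric mean. The ratio of rpl-11.1 to rpl-11.2 is 2.49 to 2.74 on the 3 RNAi arrays and 1.59 to 2.16 on the other 8; the other pairs overlap between oxygen and the remaining groups.

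Of the 75 genes, 31 had more than 1 tested probe set. Their differences had a median range of 0.06 for oxygen against control, 0.13 for RNAi with oxygen against oxygen and 0.14 for RNAi with oxygen against control, on the log2 scale. The largest range was that of rpl-12 in each, set by its dim probe set. Probe sets of a gene had opposite signs in 2, 12 and 10 of the 31 genes. Over all 109 tested probe sets 0 were called in any comparison (limma; 0, 0 and 2 at an unadjusted p under 0.05). Of the probe sets that stand for the 74 genes, 37 carry the suffix for shared probes and 14 that for possible cross-hybridisation. The 2 probe sets that failed the filter were the only one of rpl-42, with signals of 1.6 to 40, and a second one of rpl-8, with 1.8 to 10.7 beside 7392 to 14343 in the first.

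Ribosomal proteins that the rule did not take, under other symbols, read alike. The 7 genes were the stalk genes rplp-0, rplp-1, rplp-2.1 and rplp-2.2, with rpsa-1, ubq-2 and fau-1, a list drawn up after values had been seen. They had medians of −0.19, 0.09 and −0.10 in the 3 comparisons, with 0 called (limma).

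Other genes of the translation machinery were counted for comparison. Of 12 elongation and termination factors 0 were called in any comparison (limma), with medians of −0.17, 0.21 and 0.05 in the order of the comparisons above. The first was −0.02 without control 4, and a set block gave 0.02 and −0.19 for the others. Of 32 initiation factors, 0 were called under oxygen and 0 between RNAi and oxygen, with medians of −0.13, 0.18 and 0.11. Under a set block the last 2 were 0.06 and −0.07. For oxygen against control that block called eif-3.D, of the eIF3 complex, lower (−0.53, limma adjusted p = 0.041). It called pab-2, a poly(A)-binding protein, higher (1.31, limma adjusted p = 0.0083). Over all tested genes it called 908 of 11657 higher and 232 lower, beside 1 and 1 of the 32. Against control, ife-5, a cap-binding protein of the eIF4E family, was lower with RNAi and oxygen. It read 255, 253, 158 and 224 in control, 150, 183, 78.1 and 141 in oxygen, and 70.2, 71.1 and 103 with RNAi. The RNAi arrays lay below all controls, and the log2 difference was −1.45 ± 0.32 (adjusted p = 0.040, limma; −1.18 and 0.048 under a set block; −1.23 and 0.153 within set 2). Leaving out 1 array gave limma adjusted p of 0.022 to 0.162 and ended the call in 8 of 11 cases.

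Of 43 genes of ribosome assembly and ribosomal RNA synthesis, 1 was called without a block, rpac-19, a subunit shared by RNA polymerases I and III. Its signals were 907, 778, 1188 and 936 in control, 576, 686, 737 and 485 in oxygen, and 318, 372 and 408 with RNAi. The 3 groups did not overlap. RNAi with oxygen against control was −1.37 ± 0.23 (limma adjusted p = 0.013; within set 2 −1.53, adjusted p = 0.057). The call was also lost without RNAi array 1 (−1.27, limma adjusted p = 0.071) or 2 (−1.39, limma adjusted p = 0.069). Oxygen against control was −0.62 ± 0.22 (limma adjusted p = 0.188) and RNAi with oxygen against oxygen −0.75 ± 0.23 (limma adjusted p = 0.360). The medians of that list were −0.15, 0.25 and 0.04. A set block also called fib-1 (−0.63, limma adjusted p = 0.045) and nol-58 (−0.57, limma adjusted p = 0.032), both proteins of the particles that methylate ribosomal RNA, lower in oxygen than in control. Of 18 regulators of ribosome production 0 were called (limma), with medians of 0.08, 0.21 and 0.33. Under a set block the last 2 were −0.09 and −0.07. The block called the stress kinase pek-1 (1.01, limma adjusted p = 0.041) and the transcription factor atf-4 (1.41, limma adjusted p = 0.0038) higher in oxygen than in control. Over all tested genes it called 908 of 11657 higher and 232 lower in that comparison. Beside these stand 0 higher and 2 lower of the 43 assembly genes, and 2 higher and 0 lower of the 18 regulators.

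The 57 tested proteins of the mitochondrial ribosome, a separate set of genes, had medians of −0.29, 0.01 and −0.29, with 0 called in each comparison (limma). Under a set block the last 2 medians were 0.17 and −0.14. It called mrps-28 (−0.64), mrps-10 (−0.58) and mrps-25 (−0.56) lower in oxygen than in control (limma, adjusted p of 0.031 to 0.044). It also called mrps-33 lower with RNAi and oxygen than in control (−0.87, limma adjusted p = 0.048). Over all tested genes the block called 232 of 11657 lower in the first of these comparisons and 189 in the other. On control 4 the median log2 difference of the mitochondrial list from the other controls was −0.16, where that of the cytosolic members was 0.67. Without control 4 their median for oxygen against control was −0.32, beside −0.01 for the cytosolic members. Whether the 2 lists differ was not tested.

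**Figure D5:**
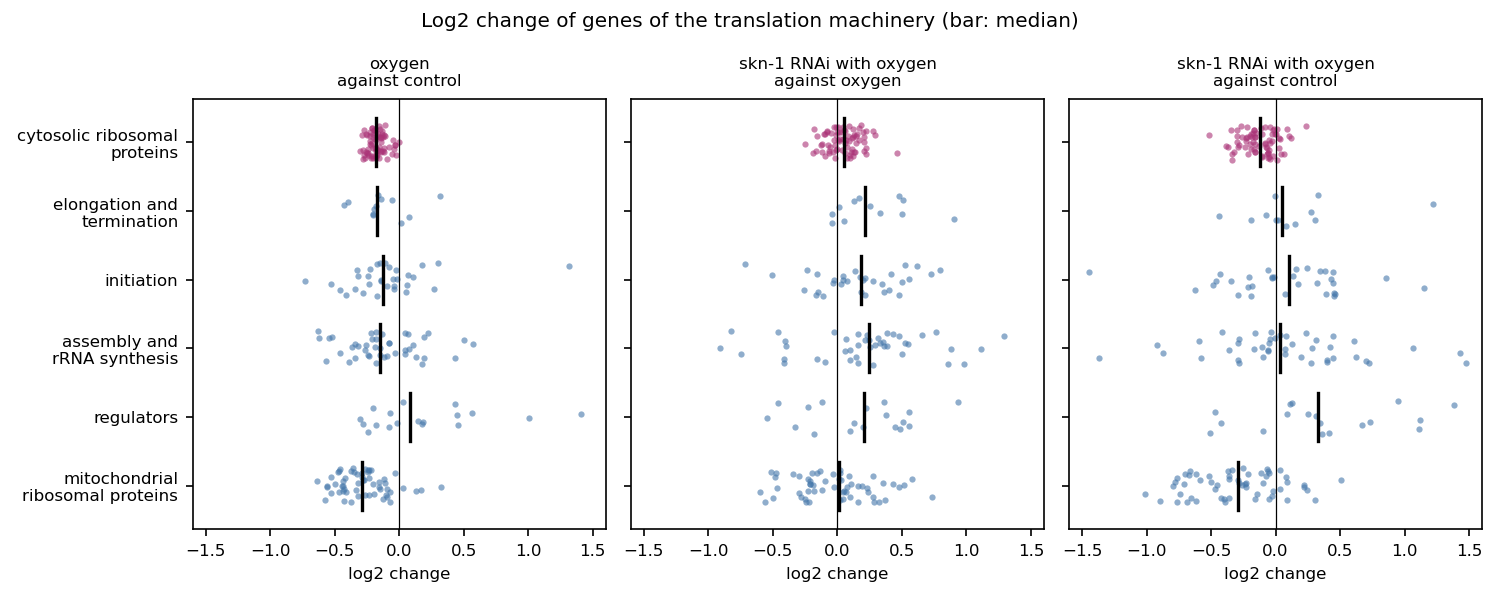
Log2 differences of the 74 cytosolic ribosomal protein genes and of 5 lists of the translation machinery in the 3 comparisons, 1 point per gene and the median as a bar. The cytosolic members lie between −0.51 and 0.46 over the 3 panels and the other lists are wider; the members' negative median in the first panel is 0.01 under quantile normalization, which is not drawn.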

How the data were processed

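The authors deposited intensities on a linear scale, 1 for each probe set on each array. The submitters' processing notes name MAS5 and GCOS 1.4. Biotin-labelled cRNA came from 10 µg of RNA, per the labels' protocols. Scaling targets and background settings are not given in the sources used here. Trimmed of 2% of values at each end, the mean was about 250 on set 2 arrays and 207 to 216 on set 1 arrays. Hybridisation and scanning took place in 2 facilities, with no record of which array went where.

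The table held 22625 probe sets, of which 77 manufacturer's controls were left out. Genes were named from GEO's platform annotation. Left out were 3 probe sets that name several genes, at least 1 of them with a symbol matching the rule. Testing required a signal at or above the 40th percentile of the array on 3 arrays or more. The 1 signal of 0 was set to 0.1. Log2 signals were fitted with limma 3.58.1 (R 4.3.3; lmFit and eBayes) on the 11 arrays together, with group alone in the model, two-sided, with Benjamini-Hochberg adjustment over all 15389 tested probe sets and a threshold of 0.05. The fit was tested on simulated data. Errors of log2 differences are standard errors. Paralog ratios were compared with exact permutation tests.

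Members, lists and tests were chosen with earlier results of these data known. Members named are the 3 largest differences each way per comparison, paralogs, those failing the filter, and rps-6, rpl-10, rpl-5, rpl-3 and rps-3. In addition rpl-32, rps-10, rps-16 and the second rpl-8 probe set are named because of counts they belong to, after their values were seen. Genes of the other translation lists are named where they passed the threshold with or without the set as a block, and tissue markers where they passed it without.

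Same-numbered control and oxygen arrays deviated together (correlations of 0.449 to 0.565 in 4 of 4 pairs). Other numbers of the same set gave 0.346 to 0.533, so the ranges overlap and pairing by number was not established. RNAi arrays did not deviate with same-numbered control or oxygen arrays (−0.128 to −0.004). Alternatives were quantile normalization, median centring, the set as a block, set 2 alone, the number as a block, other filters, a signal floor of 16, an intensity trend and leaving out each array. Centring on the members' median, the same with the set block, the number block on control and oxygen alone, and the second rpl-11.2 probe set were added after seeing the data. The annotation came with no sequences, so none are shown.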

Additional observations from a re-analysis of the deposited data

Results flagged for a closer look

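In the control group, 1 array lay far from the other 3 by a gap test of extreme values, for the members' median and for many single members. The array was control 4, with a median member signal of 11487 beside 7223 to 7408 on the other 3. Among members named above, the same array stood out for rpl-10a (12622), rps-27 (14106), rps-12 (10021), rpl-14 (11509), rpl-5 (11715), rpl-3 (15622), rps-3 (13554), rps-6 (12233), rpl-23A.2 (12744), rpl-11.1 (9487), rps-10 (10963) and rpl-8 (14343). Over all 74 members it stood out for 38. In the oxygen group, oxygen 4 stood out for rps-12 at 6190, above 5473 to 5570 on the other arrays, and for 3 members in all, and oxygen 2 for 1. Chance marks about 1 in 20 groups, and the members share arrays, so the 38 are not separate observations.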

How the results depend on the processing

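In all 24 fits run, 0 of 74 members were called in each direction and comparison. Median centring moved the members' median to −0.45 for oxygen against control and −0.58 for skn-1 RNAi with oxygen against control, with 10 and 44 members at an unadjusted p under 0.05. It left −0.14 for RNAi with oxygen against oxygen. The same centring moved the median of all tested genes to −0.22, 0.004 and −0.14, and quantile normalization to −0.08, 0.04 and −0.01. Leaving out 1 array gave members' medians of −0.25 to −0.01, −0.01 to 0.11 and −0.20 to 0.05 in the 3 comparisons. For oxygen against control, the sign turned under quantile normalization for rpl-23A.1 (0.11), rpl-41.2 (0.13), rps-6 (0.012), rpl-10L (0.16) and rps-3 (0.051), and in set 2 alone for rpl-10L (0.0016). Under centring on the members' median, with or without the set block, it turned for rpl-23A.1 (0.18), rpl-41.2 (0.12), rps-6 (0.00042), rpl-10L (0.15) and rps-3 (0.038). Leaving out 1 array gave −0.15 to 0.25 for rpl-23A.1, −0.13 to 0.10 for rpl-41.2, −0.20 to 0.19 for rpl-10L and −0.22 to 0.031 for rps-3. For RNAi with oxygen against oxygen, rpl-12 turned to −0.026 with the set block and −0.0012 in set 2 alone, where rpl-36A was 0.028. Against control, rpl-14, rps-27 and rpl-13 were −0.22, −0.34 and −0.35 under median centring, −0.00013, −0.087 and −0.12 with the set block and −0.055, −0.079 and −0.14 in set 2 alone. The replicate block by label number changed no member call. It cannot move the members' median for oxygen against control, since each number holds 1 array of each of these groups. It moved the median for RNAi with oxygen against oxygen to 0.15, with 62 of 74 positive, and that against control to −0.01. With every member probe set in place of 1 per gene, the median for oxygen against control was −0.18. The causes of these shifts were not tested. The 95% intervals are not adjusted for the number of tests, and the smallest detectable difference was not computed.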
